A study of Sus scrofa with 5 samples.

Results

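The miR-99, miR-100 and miR-125 families were followed in small RNA libraries of pig embryonic and somatic cells. The members are the 5 mature names ssc-miR-99a, ssc-miR-99b, ssc-miR-100, ssc-miR-125a and ssc-miR-125b of 411 mature names in the table of reported miRNAs, of which 327 had a read in any library. They were selected by mature name, with earlier results of these data known. None of them occurred with an arm ending, and they occupied 6 of the 493 rows, since miR-125b has a row for each of its 2 precursors. Blastocysts (BLs) had 2 libraries, BL_1 and BL_2, each from a pool of parthenogenetic embryos, made by activating oocytes without sperm and grown to day 7. ES-like cells, a pig embryonic stem cell-like line derived from blastocysts, had 1 library and were cultured on mitomycin-treated mouse embryonic fibroblasts with stem cell factor and basic fibroblast growth factor. Pig embryoid bodies (PEBs), with 1 library, were aggregated in hanging drops from colonies of the same ES-like cells without cytokines. Pig fetal fibroblasts (PFFs), with 1 library, were grown from fetal body tissue left after removal of head, limbs and organs. The study treated BLs and ES-like cells as pluripotent and PEBs and PFFs as differentiated. Levels are given in RPM, reads per 1000000 reads of reported miRNAs in a library. The 3 cultured cell types have no replicate, so intervals on their values are 95% intervals for counting error only, and reads of amplified libraries are not independent molecules.

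A miRNA recognises target mRNAs mainly through its seed, a short stretch near the 5′ end, and miRNAs with the same seed form a family. miR-99a, miR-99b and miR-100 share a seed and are known to repress mTOR and the IGF1 receptor. miR-125a and miR-125b share another seed and are the vertebrate relatives of lin-4, a worm miRNA that times development. miR-125 represses LIN28, the RNA-binding protein that blocks maturation of let-7 in pluripotent cells. The genes lie in conserved clusters that each hold a miR-99 or miR-100 gene, a let-7 gene and a miR-125 gene. In the RefSeq gene table of Sscrofa11.1, MIRLET7E lies between MIR125A and MIR99B, MIRLET7A-1 between MIR125B-1 and MIR100, and MIRLET7C next to MIR99A.

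Total reads of reported miRNAs ranged from 113743 in BL_1 and 2782150 in BL_2 over 6372500 in ES-like cells and 15849954 in PEBs to 27071931 in PFFs. All 5 members were detected in all 5 libraries, with at least 79 reads in BL_1, where a miRNA with no read could still be present at up to 26.4 RPM. Of 8 fibroblast-associated miRNAs, 8 had reads in each cultured library, and their summed level was 45656 RPM in BL_1, 74481 in BL_2, 226289 in the ES-like cells and 333001 in PEBs, against 712483 in PFFs. miR-21 alone gave 522808 RPM of the sum in PFFs, and 5 of the 8 were lower in PFFs than in PEBs in RPM but 0 of 8 with TMM or DESeq2 size factors. The median ratio of all miRNAs in PFFs over PEBs was 0.590 in RPM, and no share of all miRNAs is given here for the other scalings. Within this list miR-145-5p and miR-214 had 0 reads in BL_1, and miR-143-3p had 17.6 RPM in BL_1, 60.4 in BL_2, 13226 in the ES-like cells and 17917 in PEBs, against 101507 in PFFs. Of 8 pluripotency-associated names only miR-371-5p had a row, at 324635 and 296148 RPM in BLs and 30.9 RPM in ES-like cells, against 0.505 RPM in PEBs (8 reads) and 0.185 RPM in PFFs (5 reads). On this 1 marker ES-like cells lay above the differentiated libraries and far below BLs, and the other 7 names had no row. miR-122, a liver miRNA, had 101004 RPM in ES-like cells and 54096 RPM in PEBs against 4.14 RPM in PFFs. The summed epithelial list (2 of 6 names with a row) ranged from 0.776 to 5777 RPM, the blood cell list (5 of 6) from 1.96 to 87.4 RPM and the skeletal muscle list (4 of 4) from 191 to 2445 RPM.

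In RPM, the members together took a smaller share of the reads in BLs than in the cultured cells. Their share of the reads was 0.793% in BL_1 (0.743 to 0.846%, Wilson interval) and 0.726% in BL_2 (0.716 to 0.736%). It was 2.71% in ES-like cells (2.70 to 2.72%) and 3.57% in PEBs (3.56 to 3.58%), and reached 4.45% in PFFs (4.44 to 4.45%). In RPM the families had their highest levels in different cells. The miR-99/100 family stood at 5210 ± 739 RPM in BLs (SD, n = 2), 15081 RPM in ES-like cells, 13447 RPM in PEBs and 29803 RPM in PFFs. The miR-125 family stood at 2384 ± 263 RPM in BLs (SD, n = 2), 12008 RPM in ES-like cells, 22293 RPM in PEBs and 14663 RPM in PFFs. With TMM factors the gap between BLs and ES-like cells was narrower for both families. The miR-99/100 family was at 4908 in BL_1 and 7323 in BL_2 against 10160, and the miR-125 family at 1882 and 4014 against 8090. The miR-125 family was instead highest in PFFs with TMM factors (21119 against 17176 in PEBs) and with DESeq2 size factors (21416 against 16371), like the miR-99/100 family. The same held (31747 against 29664) without the most abundant miRNAs. For that setting the miRNAs most abundant in any library, miR-371-5p, miR-148a-3p and miR-21, were left out of the total of every library. TMM and DESeq2 size factors scale libraries on the bulk of the miRNAs instead of on the total. In these bulk libraries, fewer expressing cells and less RNA per cell cannot be told apart.

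**Figure D1:**
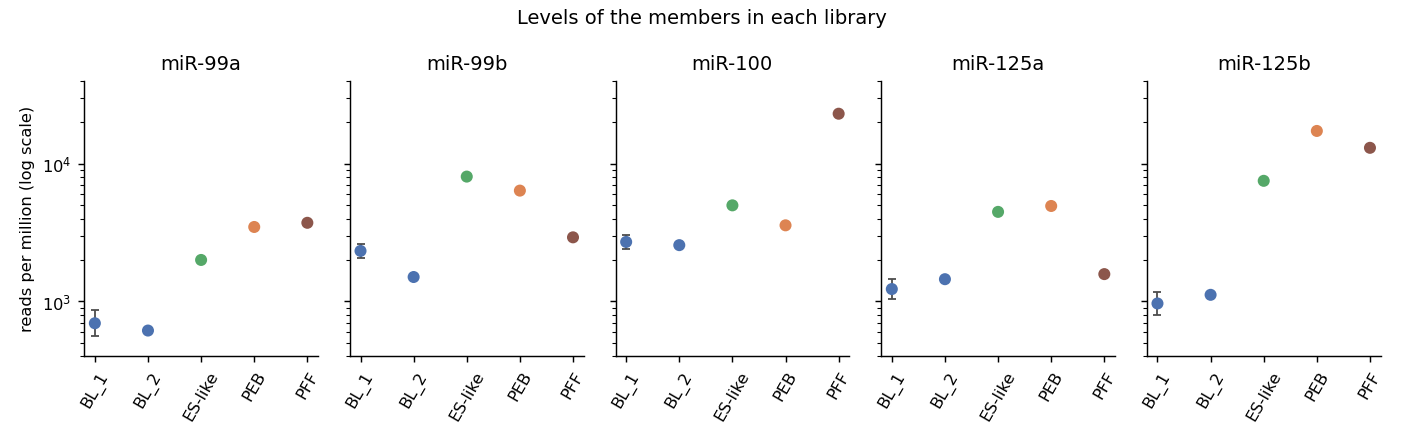
Levels of the 5 members in RPM on a log scale, 1 point per library, with 95% Wilson intervals for counting error that are smaller than the point in most libraries. Both BL libraries lie below every cultured library for each member, miR-100 reaches 23148 in PFFs, and miR-99b and miR-125a are lower in PFFs than in ES-like cells and PEBs.

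Like miR-99a in RPM, miR-100 was highest in PFFs, but by a far wider margin. It had 308 reads in BL_1 (2708 RPM), 7141 in BL_2 (2567 RPM), 31833 in the ES-like cells (4995 RPM), 56678 in PEBs (3576 RPM) and 626650 in PFFs (23148 RPM). PFFs stood apart from the 4 other libraries, and miR-100 was the 6th most abundant miRNA there, against places from 27 to 40 in the others. Its level in PFFs was 6.47 times that in PEBs (6.42 to 6.53), 4.63 times that in ES-like cells (4.58 to 4.69) and 8.78 times the BL mean. Among the other 4 libraries its RPM spanned less than 2-fold, and the order of BLs and PEBs depended on the scaling, as described below.

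miR-99a, whose gene lies beside let-7c, had 79 reads in BL_1 (695 RPM), 1710 in BL_2 (615 RPM), 12765 in the ES-like cells (2003 RPM), 55133 in PEBs (3478 RPM) and 100981 in PFFs (3730 RPM). It was thus lowest in BLs, intermediate in ES-like cells and highest in the differentiated libraries, which lay within 1.07-fold of each other in RPM but not under other scalings, as given below. Its level in PEBs was 1.74 times that in ES-like cells (1.70 to 1.77).

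miR-99b, from the cluster with let-7e and miR-125a, had 265 reads in BL_1 (2330 RPM), 4189 in BL_2 (1506 RPM), 51506 in the ES-like cells (8083 RPM), 101324 in PEBs (6393 RPM) and 79183 in PFFs (2925 RPM). ES-like cells held the highest level, and in RPM PFFs were nearer to BLs than to the other cultured cells. With TMM factors PFFs, at 4213, were nearer to PEBs (4925) than to BL_1 (1995) and BL_2 (2353). The level in PFFs was 0.362 times that in ES-like cells (0.358 to 0.366). In RPM, BL_1 exceeded BL_2 by 1.55 times (1.36 to 1.75), the only member for which the BL libraries then differed beyond counting error.

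miR-125a had 140 reads in BL_1 (1231 RPM), 4039 in BL_2 (1452 RPM), 28538 in the ES-like cells (4478 RPM), 78340 in PEBs (4943 RPM) and 42788 in PFFs (1581 RPM). Its pattern resembled that of its cluster neighbour miR-99b, with ES-like cells and PEBs high and PFFs close to BLs in RPM. PFFs were at 0.353 times the level of ES-like cells (0.348 to 0.358), at 1.28 times that of BL_1 and at 1.09 times that of BL_2. With TMM factors the gap to ES-like cells was narrower, at 2276 in PFFs against 3017.

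miR-125b, the other member of that family, had 110 reads in BL_1 (967 RPM), 3109 in BL_2 (1117 RPM), 47985 in the ES-like cells (7530 RPM), 275007 in PEBs (17351 RPM) and 354173 in PFFs (13083 RPM). It had the widest span of the 5 members, and it was the most abundant member in PEBs and the least abundant but one in both BL libraries. PEBs exceeded ES-like cells by 2.30 times (2.28 to 2.33) and the BL mean by 16.6 times. These sums are over the precursor rows miR-125b-1 and miR-125b-2, which held 55 and 55 reads in BL_1, 1558 and 1551 in BL_2, 24727 and 23258 in ES-like cells, then 140551 and 134456 in PEBs, with 178658 and 175515 in PFFs. The second row held at least 94.1% as many reads as the first, and how reads that match both precursors were counted is not given in the sources used here. If the same reads were counted at both, the sum is close to 2 times the number of reads, which bears on every comparison of miR-125b with another miRNA but hardly on its ratios between libraries.

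The BL libraries were the one measure of replicate spread available, and their largest ratio for any member was 1.55 in RPM. With TMM factors it was 2.15 (miR-125a), miR-125b then differed 2.11-fold and miR-99b 1.18-fold, so the following order holds for RPM only. Neighbours in the order of levels that differed by less than this were PEBs and PFFs for miR-99a and for miR-125b (PFFs at 0.754 times PEBs), ES-like cells and PEBs for miR-99b (PEBs at 0.791 times ES-like cells), for miR-100 (0.716 times) and for miR-125a (1.10 times), PFFs and BLs for miR-99b (1.53 times) and for miR-125a (1.18 times), and PEBs and BLs for miR-100 (1.36 times).

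The share of each member within its seed family does not depend on how libraries are scaled against each other. In the miR-99/100 family, miR-100 held 47.2% of the reads in BL_1 (43.4 to 51.1%, Wilson interval), 54.8% in BL_2 (53.9 to 55.6%), 33.1% in the ES-like cells (32.8 to 33.4%) and 26.6% in PEBs (26.4 to 26.8%), but 77.7% in PFFs (77.6 to 77.8%). The leading member was miR-100 in BL_2 and PFFs and miR-99b in ES-like cells and PEBs. In BL_1 neither led beyond counting error, with 1.16 reads of miR-100 per read of miR-99b (0.983 to 1.37). miR-99b held 40.6% and 32.1% of the family in BL_1 and BL_2, 53.6% in the ES-like cells and 47.5% in PEBs, but 9.81% in PFFs. miR-99a held from 12.1 to 13.3% in BLs, ES-like cells and PFFs, and 25.9% in PEBs (25.7 to 26.1%). The SD over the BL libraries (n = 2) was 5.32 percentage points for miR-100 and 6.02 for miR-99b, close to the difference between ES-like cells and PEBs for both. The shift between PEBs and PFFs was large within the family, with 1.03 reads of miR-100 for each read of miR-99a in PEBs (1.02 to 1.04) and 6.21 in PFFs (6.16 to 6.25). The mature sequences of this family are closely related, and the number of mismatches allowed in the authors' counting is not given in the sources used here, so a part of the reads of one member may belong to another.

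In the miR-125 family the balance moved from miR-125a to miR-125b. miR-125b held 44.0% of the family in BL_1 (38.0 to 50.2%), 43.5% in BL_2 (42.3 to 44.6%), 62.7% in the ES-like cells (62.4 to 63.0%) and 77.8% in PEBs (77.7 to 78.0%), against 89.2% in PFFs (89.1 to 89.3%). BL_1 and BL_2 differed by less than the counting error. With the larger precursor row of miR-125b in place of the sum, the shares were 28.2% in BL_1, 27.8% in BL_2, 46.4% for the ES-like cells, then 64.2% for PEBs, and 80.7% for PFFs. The order of the cells was the same with either count, while miR-125a was then the leading member in ES-like cells too. Between the families, there were 2.61 and 1.82 reads of miR-99/100 per read of miR-125 in BL_1 and BL_2 and 1.26 in ES-like cells, but 0.603 in PEBs and 2.03 in PFFs. With the larger precursor rows these ratios were 3.34, 2.33, 1.80, 0.974 and 3.64 in the same order, so that PFFs and not BL_1 were highest, while PEBs were lowest with either count.

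**Figure D2:**
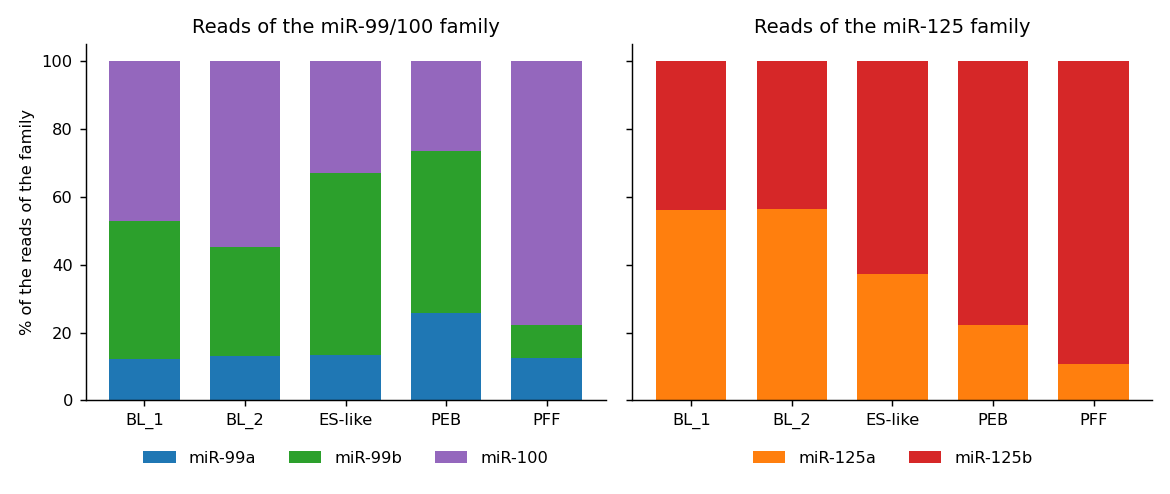
Percent of the reads of each seed family held by its members, 1 stacked bar per library, with miR-125b summed over both precursor rows. miR-100 makes up 77.7% of its family in PFFs and 26.6% in PEBs, and miR-125b goes from 43.5% of its family in BL_2 to 89.2% in PFFs.

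Of the 3 pairs of members that share a cluster, 2 had patterns over the 5 libraries that lay closer than those of any pair sharing a seed. The distance between a pair was taken as the root mean square difference of log2(RPM + 1), each pattern centred on its own mean, so that library scaling cancels almost entirely. miR-99b and miR-125a, which have different seeds and share a cluster, had the smallest distance of the 10 pairs, 0.35. Within seeds, the distance was 0.83 for miR-99a and miR-99b, 0.89 for miR-99a and miR-100, 1.38 for miR-99b and miR-100 and 1.31 for miR-125a and miR-125b. miR-125b, which comes from both other clusters, lay at 0.69 from miR-99a, closer than any seed pair, and at 1.40 from miR-100. MIR125B-2, the gene that pairs miR-125b with miR-99a in the conserved cluster, was not matched in the gene table, so this pairing is background knowledge. Without BL_1, chosen as an alternative after seeing the data, miR-99b and miR-125a lay at 0.35 and miR-99a and miR-125b at 0.53, against 0.86 or more for the seed pairs. These 5 points include both BL libraries, and the distances are a description.

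Among 111 other miRNAs with at least 10 reads in every library, the nearest pattern to miR-99a was that of miR-24-3p (distance 0.20), followed by let-7g (0.23). For miR-125b it was let-7i (0.29) and then miR-181a (0.37), both low in BLs and, in RPM, highest in PEBs. With DESeq2 size factors both were highest in PFFs, and with TMM let-7i was. miR-125a was nearest to miR-101 (0.32) and miR-30e-5p (0.36), and miR-99b to miR-140-5p (0.38) and miR-101 (0.38). Without BL_1, the shallowest library, miR-101 lay at 0.0914 from miR-99b, miR-140-5p was no longer among its 2 nearest, and the second neighbour of miR-125a was miR-26a. Among miRNAs with at least 100 reads in every library, the nearest to miR-125b lay at 0.68. Among the 111, miR-100 had no neighbour as near as the other members, with miR-221-3p at 0.60 and miR-21 at 0.62. The median distance to the 111 candidates ranged from 1.27 for miR-125a to 2.19 for miR-125b.

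The let-7 miRNAs of the same clusters, which promote differentiation and are held back by LIN28, did not keep a fixed ratio to the members. For each read of let-7e there were 4.34 reads of miR-99b in BL_1 (3.28 to 5.84), 5.75 in BL_2 (5.31 to 6.22), 15.7 in the ES-like cells (15.2 to 16.3), but 5.18 in PEBs (5.10 to 5.26) and 2.36 in PFFs (2.33 to 2.39). ES-like cells thus had the most miR-99b per let-7e, and PFFs the least. For miR-125a, from the same cluster, the ratio to let-7e was 2.30 in BL_1, 5.54 in BL_2, 8.72 in the ES-like cells, but 4.00 in PEBs and 1.28 in PFFs. Here too ES-like cells were highest and PFFs lowest, although BL_1 and BL_2 differed 2-fold or more.

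The ratio of miR-99a to let-7c was 3.95 in BL_1 (2.39 to 6.81), 5.96 in BL_2 (5.25 to 6.78), 2.33 in the ES-like cells (2.25 to 2.40), only 1.14 in PEBs (1.12 to 1.15) and 6.06 in PFFs (5.96 to 6.16). PEBs had the lowest ratio, where let-7c itself was at 3059 RPM against 862 RPM in ES-like cells and 615 RPM in PFFs. The ratio of miR-100 to let-7a was 0.288 in BL_1, 0.577 in BL_2, 1.49 in the ES-like cells, but 0.297 in PEBs and 1.88 in PFFs. let-7a comes from 2 precursors of which only let-7a-1 is beside miR-100, and with the larger precursor row the ratios were 0.558, 1.09, 2.40, 0.506 and 3.61 in the same order. The order of the libraries was the same except that PEBs then lay below BL_1.

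**Figure D3:**
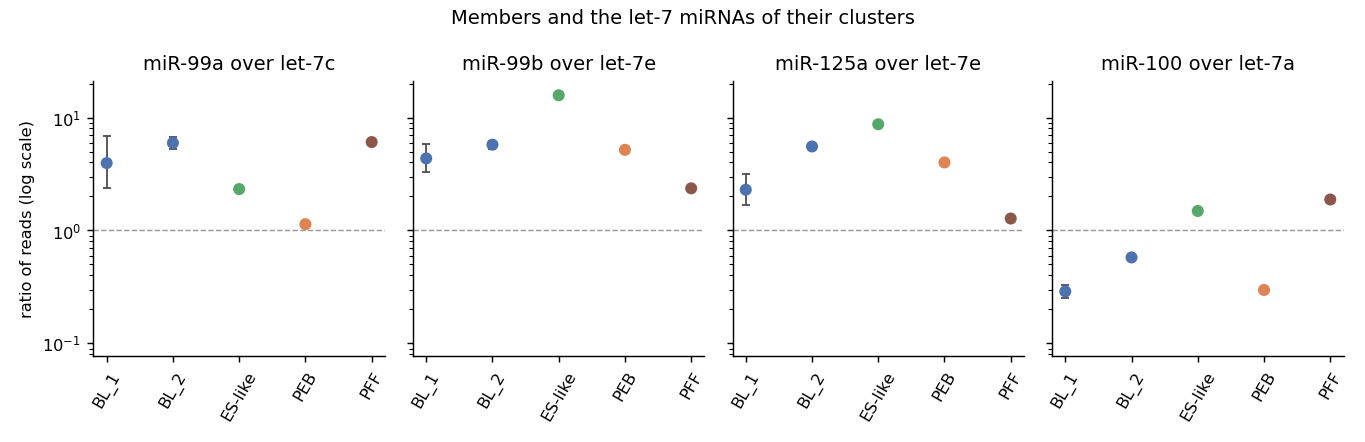
Reads of a member divided by reads of the let-7 miRNA of its cluster, on a log scale, 1 point per library, with exact 95% intervals for counting error where they are larger than the point. miR-99b and miR-125a per let-7e are highest in ES-like cells (15.7 and 8.72), and miR-99a per let-7c is lowest in PEBs (1.14).

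For the let-7 names (9, with miR-98 and both arms of let-7d), the summed level was 17390 RPM in BL_1, 12553 in BL_2, 29188 in the ES-like cells, but 79964 in PEBs and 47725 in PFFs. The arm let-7d-3p was included by name and not by seed, at 39.9 RPM in ES-like cells and 113 RPM in PEBs. PFFs were instead highest with TMM (68737 against 61610 in PEBs) and with DESeq2 size factors (69704 against 58723). From ES-like cells to PEBs, 8 of the 9 names were more than 2-fold higher in RPM and the median ratio was 3.11, where 21.4% of 285 miRNAs were more than 2-fold higher. The members, with 1 of 5 (miR-125b), stood near that background. From PEBs to PFFs, 0 of the 9 names were more than 2-fold higher in RPM, against 16.6% of 295 miRNAs, and 4 were more than 2-fold lower, against 44.7%, which is near the background.

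Cell types were then compared pair by pair with a 2-fold threshold on RPM and BLs as the mean of both libraries. The study also used 2-fold and the BL mean, but on levels normalised with TCC. Ratios in RPM are relative to the rest of each library, so the same was computed over all miRNAs with at least 10 reads in a library of the pair. In ES-like cells against BLs, 4 of 5 members were more than 2-fold higher, against 53.9% of 293 miRNAs, and 0 more than 2-fold lower, against 23.9%. The count of 4 became 2 with TMM factors and 3 with DESeq2 size factors, while the shares of all miRNAs are given for RPM only. With TMM the log2 ratio of miR-99a went from 1.61 to 0.80 and that of miR-125a from 1.74 to 0.86. TMM also lowered the log2 ratio of miR-125b from 2.85 to 1.98, of miR-99b from 2.08 to 1.32 and of miR-100 from 0.92 to 0.09. The member ratios in RPM were 7.22 for miR-125b, 4.21 for miR-99b, 3.34 for miR-125a, 3.06 for miR-99a and 1.89 for miR-100. The median of all 293 was 2.50. The count of 4 of 5 was near that background, and only miR-125b, at 2.89 times the median of all miRNAs, stood at more than 2 times it.

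In PEBs against ES-like cells, 1 of 5 members (miR-125b) was more than 2-fold higher, against 21.4% of 285 miRNAs, and 0 were more than 2-fold lower, against 23.5%. Relative to the median of all miRNAs, miR-125b was at 2.62 times, miR-99a at 1.97 times, miR-125a at 1.25 times, miR-99b at 0.899 times and miR-100 at 0.814 times. In PFFs against PEBs, 1 of 5 members (miR-100) was more than 2-fold higher, against 16.6% of 295 miRNAs, and 2 (miR-99b and miR-125a) were more than 2-fold lower, against 44.7%. The median ratio of all 295 was 0.590 in RPM, in a library in which miR-21 took 52.3% of the reads. Relative to that median, miR-100 was at 11.0 times, miR-99a at 1.82 times, miR-125b at 1.28 times, miR-99b at 0.776 times and miR-125a at 0.542 times.

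In PFFs against ES-like cells, 1 of 5 members (miR-100) was more than 2-fold higher, against 17.8% of 292 miRNAs, and 2 (miR-99b and miR-125a) were more than 2-fold lower, against 51.0%. Relative to the median of all, miR-100 was at 9.41 times, miR-99a at 3.78 times, miR-125b at 3.53 times, miR-99b at 0.735 times and miR-125a at 0.717 times. In PEBs against BLs, 4 of 5 members were more than 2-fold higher, against 53.2% of 297 miRNAs, and 0 lower, against 25.9%. In PFFs against BLs it was 3 of 5 higher, against 40.7% of 295, and 0 lower, against 36.3%. miR-125b was at 7.49 times the median of all miRNAs in PEBs against BLs and at 11.1 times in PFFs against BLs. The other 4 members lay from 0.610 times (miR-100) to 2.39 times (miR-99a) that median in PEBs against BLs, and from 1.05 times (miR-125a) to 7.79 times (miR-100) in PFFs against BLs.

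**Figure D4:**
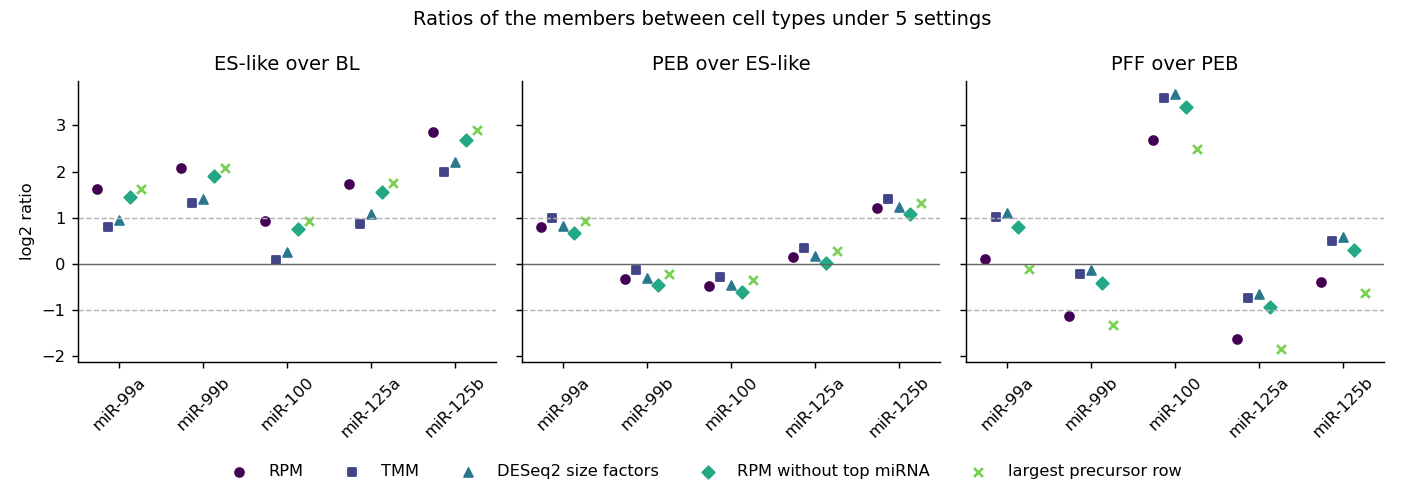
Log2 ratios of each member between cell types in RPM and under 4 other settings, with dashed lines at 2-fold. miR-100 is more than 2-fold higher in PFFs than in PEBs under each setting, and miR-125b in PFFs over PEBs lies below 0 in RPM (-0.41) and above 0 with TMM (0.50).

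Directions that turned with the scaling were few. miR-125b in PFFs over PEBs had a log2 ratio of -0.41 in RPM, 0.50 with TMM factors, 0.58 with DESeq2 size factors and 0.29 without the most abundant miRNAs. miR-100 in PEBs over BLs had 0.44 in RPM, -0.20 with TMM and -0.19 with DESeq2 size factors. miR-99a in PFFs over PEBs had 0.10 in RPM and -0.11 with the larger precursor rows, but 1.00 with TMM, 1.09 with DESeq2 size factors and 0.80 without the most abundant miRNAs. None of these 3 ratios passed 2-fold in RPM, and all other ratios of the members kept their sign in the 6 pairs of cell types under these 4 settings. miR-100 in PFFs over PEBs had 2.69 in RPM and from 2.49 to 3.69 under the 4 other settings. The 2-fold lower level of miR-99b and miR-125a in PFFs held in RPM and with the larger precursor rows only. Against PEBs, miR-99b had a log2 ratio of -1.13 in RPM, -0.23 with TMM, -0.14 with DESeq2 size factors and -0.43 without the most abundant miRNAs. miR-125a had -1.64 in RPM and -0.74, -0.65 and -0.94 under the same settings, and against ES-like cells both members lay from -0.37 to -0.93 there. With TMM and with DESeq2 size factors, miR-100 was no longer lower in both BL libraries than in every cultured library, while the other 4 members were. For miR-125a with TMM the gap was slight, at 2268 in BL_2 against 2276 in PFFs. The share of all miRNAs with such a separation is given for RPM only, so these 4 have no background under the other scalings.

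The comparisons with more than 1 library on each side were tested over the 279 miRNAs that had over 5 reads in 3 or more libraries. In RPM, each of the 5 members was lower in both BL libraries than in the 3 cultured ones, as were 39.7% of 305 miRNAs. edgeR's quasi-likelihood test of cultured cells against BLs called 31 of 279 miRNAs at an adjusted p under 0.05, 13 higher (4.66%) and 18 lower (6.45%) in cultured cells, and 0 of the 5 members. The cultured group holds 3 different cell types with 1 library each, so its spread includes cell type and is not a replicate spread. miR-125b had the highest fitted log2 fold change of the members, 3.27 (standard error 1.02, adjusted p = 0.0719 from edgeR), where the median of all 279 was 0.84. It was called under 9 of 12 alternatives, with adjusted p-values from 0.000717 (DESeq2) to 0.293. The highest, 0.293 without BL_1 and 0.245 without BL_2, come from fits with 1 BL library, which is then assumed to vary like the cultured cell types. The other members had log2 fold changes of 2.05 for miR-100 (standard error 1.32), 2.01 for miR-99a (0.93), 1.16 for miR-99b (0.75) and 0.87 for miR-125a (0.80), with adjusted p-values from 0.172 to 0.417 in edgeR, and were called under none of the 12. Without PFFs the log2 fold change of miR-100 was -0.0499.

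PEBs and PFFs against BLs and ES-like cells gave 0 calls of 279 with edgeR (0% in either direction), 21 miRNAs at an unadjusted p under 0.05, 14 calls with DESeq2 and 0 with limma. The libraries of a group here are different cell types, so the spread within groups includes that difference. miR-99a and miR-125b were higher in RPM in both differentiated libraries than in the 3 others, as were 15.4% of 305 miRNAs. Their log2 fold changes were 2.05 (standard error 1.04) and 2.66 (1.20), each with adjusted p = 0.478 from edgeR. That of miR-100 was 2.48 (1.28, adjusted p = 0.478 from edgeR), and without PFFs it was -0.23, so it rested on that library. miR-125a and miR-99b had 0.52 (1.05) and 0.48 (1.06), both with adjusted p = 0.938 from edgeR. Only miR-125b was called under an alternative, without ES-like cells (adjusted p = 0.0416 from edgeR). That fit sets PEBs and PFFs against BLs, so it is the same fit as in the test of cultured cells above. It called 15 of 279 miRNAs. Among alternatives that kept 2 or more libraries in each group, the highest adjusted p of miR-125b was 0.939 (edgeR, without BL_2).

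From PEBs to PFFs, where miR-100 was higher under each setting, 3 of the 8 fibroblast-associated miRNAs (miR-21, miR-143-3p and miR-145-5p) were higher in RPM and 5 were lower, at 0.601 to 0.743 times their PEB level. The 5 lay above the median ratio of all miRNAs, 0.590, and with TMM and with DESeq2 size factors 8 of 8 were higher in PFFs. With TMM the 5 were at only 1.12 to 1.39 times their PEB level. The share of all miRNAs higher in PFFs under these scalings is not given here, so the 8 of 8 has no background. miR-143-3p had 101507 RPM in PFFs and 17917 RPM in PEBs, whereas miR-199a-3p had 52517 RPM in PFFs and 80420 RPM in PEBs. ES-like cells, which were grown on mouse fibroblasts, had 13226 RPM of miR-143-3p. The part of fibroblasts, pig or mouse, in the levels of the members was not tested.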

How the data were processed

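The 5 small RNA libraries were grouped by the submitters' labels. Per the submitters' notes and the study's methods, the authors trimmed reads with Cutadapt 1.10, aligned them with Bowtie 1.1.1 to Sscrofa10.2 and quantified reported miRNAs with miRDeep2 on miRBase. The deposited values used here are raw read counts per mature and precursor name, without normalization. Their depth is given with the results. The deposited table of predicted loci was not used.

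Counts were summed over precursor rows and divided by the library total (RPM). Shares have Wilson and ratios exact conditional binomial 95% intervals, which cover counting error only. The quasi-likelihood test of edgeR 4.0.16, with TMM factors, p-values adjusted by Benjamini-Hochberg over all miRNAs tested and a threshold of 0.05, was tested on simulated data. Standard errors are the log2 fold change over the square root of F. limma 3.58.1 and DESeq2 1.42.0 (R 4.3.3), other scalings, filters, the largest precursor row and the omission of single libraries were alternatives. Named miRNAs are the members, let-7 miRNAs of their clusters, the 2 nearest patterns to each member, marker lists and the most abundant miRNAs. Members and lists were chosen with earlier results of these data known. p-values set a difference between groups against the spread between these libraries, which in both tests includes differences between unreplicated cell types. The rest was computed with scipy 1.17.1 and pandas 2.3.3 in Python 3.11.15.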

Additional observations from a re-analysis of the deposited data

How the results depend on the processing

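The share of miR-100 in its family was 51.0% in BLs on average, and 47.2 to 54.8% with either BL library left out. The share of miR-125b was 43.7% in BLs, 43.5 to 44.0% with either library left out, and 28.0% with the larger precursor row, which gave 46.4% for the ES-like cells, then 64.2% for PEBs, and 80.7% for PFFs. The number of members more than 2-fold higher fell in ES-like cells over BLs from 4 to 2 with TMM and to 2 at a 4-fold threshold. In PEBs over BLs it was 2 at 4-fold, and in PEBs over ES-like cells 0 at 4-fold. It rose from 1 to 2 in PFFs over PEBs with TMM and with DESeq2 size factors (2), and to 3 in PFFs over ES-like cells with TMM, with DESeq2 size factors and without the most abundant miRNAs (3). In PFFs over PEBs the added member was miR-99a, with TMM barely past 2-fold (5372 against 2680). Scaling factors shift all miRNAs of a library, and shares of all miRNAs are given for RPM at 2-fold only. These changes in the counts therefore have no background and are no result about the members. In the test of cultured cells against BLs, edgeR's 31 calls became 55 with DESeq2 size factors, 57 with library totals only, 51 without a filter, 100 with DESeq2, 62 with limma, 42 with the larger precursor row and 23 of 116 tested with at least 10 reads in every library. With 1 library left out there were from 1 to 119 calls, 2 without BL_1, 1 without BL_2, 15 without ES-like cells, 1 without PEBs and 119 without PFFs. Without BL_1 or BL_2 the spread comes from the 3 cultured cell types only, and the lone BL library is assumed to vary like them. In the test of differentiated against pluripotent libraries, 0 calls became 14 with DESeq2 and 15 without ES-like cells, the same fit as above, and the range with 1 library left out was 0 to 15. The log2 fold change of miR-100 ranged from -0.0499 to 2.92 in the first test and from -0.23 to 3.74 in the second with 1 library left out, and was negative without PFFs only. The cause of these differences was not tested. BL_1, with 113743 reads, limits the precision of BL values. The paper also reported that miRNAs were a much smaller part of the small RNAs in both BL samples than in the cultured samples. RPM counts reads of reported miRNAs only, so it does not show that difference, and its bearing on the members was not tested. No paired analysis was possible because only BLs have a second replicate.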
